A study of Mus musculus with 13 samples.

Results

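The genes described here encode the subunits of the 5 oxidative phosphorylation complexes, together with the complex I assembly factors whose names share the Nduf prefix. A transcript cluster, the array's unit for one gene, was a member if its single gene symbol began with Nduf, Uqcr, Atp5 or Cox followed by a digit from 4 to 8, or was Sdha, Sdhb, Sdhc or Sdhd. The rule gave 60 genes, with 1 cluster each, among 23332 clusters: 33 of complex I (5 core subunits, 22 accessory subunits and 6 assembly factors), 4 of complex II, 5 of complex III, 10 of complex IV and 8 of complex V. A further 7 clusters with several symbols held a matching one and were not used.

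RNA was measured on 13 mouse exon arrays, with 1 array per condition, while mouse embryonic fibroblasts (MEFs) were converted to induced pluripotent stem (iPS) cells with a promoter that doxycycline (Dox, 1.5 µg/ml) switches on; the labels do not name the factors. The groups were the iPS cells (the secondary 6C-derived cells at day 30 and the primary 6C cells), the 6C-secondary MEFs at days 2, 5, 8, 11, 16 and 21 of Dox, the 1B-secondary MEFs at day 5 of Dox and after 5 days of Dox followed by 5 days without it, and the untreated cells (Parental MEFs, 6C-secondary MEFs at day 0 and 1B-secondary MEFs at day 0). All were grown in mouse embryonic stem cell medium. The study's text speaks of 6C as clones and the labels say no more of 1B than its name; the secondary iPS cells are called Dox-independent although their agent is given as Dox. No label describes repeat cultures of a condition, so each p-value below measures only the spread between these arrays. Values are log2 expression, and a difference of 1 is a 2-fold change.

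The respiratory chain passes electrons from NADH through complex I, and from succinate through complex II, to ubiquinone. Complex III carries them to cytochrome c, complex IV hands them to oxygen, and complex V uses the proton gradient built on the way to make ATP. Most subunits are encoded in the nucleus, the rest by mitochondrial DNA, and pluripotent stem cells are known for relying strongly on glycolysis while keeping a working respiratory chain.

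Nuclear genes of the chain are known targets of the factors NRF1, GABPA (an ETS factor), the ERR receptors and YY1, so the promoters were searched for 1 short motif of each. In the RefSeq promoters of the GRCm38.p6 build, taken from 250 bases before to 50 after each gene's start, 49 members had an entry. The motifs, searched on both strands, were the NRF1 palindrome of 10 bases, CCGGAAG for ETS factors, TCAAGGTCA for ERR and AANATGGC for YY1. No matches of different motifs overlapped in the members. The YY1 motif was held by 16 of the 49 members, or 32.7%, against 6.96% of all 27025 genes and 9.91% of the 8122 genes on the array with a mean log2 value over 6. Of these 16 genes, 12 were among the 30 of complex I and 3 among the 6 of complex V. In 10 of the 16 the match reached or lay past the start, with its first base between positions -3 and 39. The NRF1 motif was held by 4 members (Cox6a1, Ndufaf4, Ndufaf5 and Uqcrc1), or 8.16%, against 1.07% of all genes and 2.22% of the array's genes. The ERR motif was held by 2 members, or 4.08%, against 0.466% and 0.332%. The ETS motif was held by 8 members, or 16.3%, against 9.93% of all genes and 19.3% of the array's genes. A match is a stretch of letters and not a measured binding site.

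The promoters below are shown because they hold a match wholly before the start: both members with such an NRF1 match, and the member with the largest difference between iPS and untreated cells among those with such a YY1 match. Each is the 250 bases before the start on the gene's own strand, 5′ to 3′, with the match to the motif it is shown for in capitals. Cox6a1 also holds an ETS match on the other strand, at position -16, which is left in lower case. Ndufaf3 lies at chr9:108567437-108567686 on the minus strand, and its match is the YY1 motif read from the other strand. Ndufaf4 lies at chr4:24897833-24898082 on the plus strand, and its NRF1 match, the palindrome, begins at position -113. Cox6a1 lies at chr5:115348959-115349208 on the minus strand, and its NRF1 match begins at position -162.
Ndufaf3: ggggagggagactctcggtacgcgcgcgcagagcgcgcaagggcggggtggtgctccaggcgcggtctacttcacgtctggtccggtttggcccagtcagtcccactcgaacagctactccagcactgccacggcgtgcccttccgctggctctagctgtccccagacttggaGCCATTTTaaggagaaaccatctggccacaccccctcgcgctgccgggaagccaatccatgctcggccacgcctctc
Ndufaf4: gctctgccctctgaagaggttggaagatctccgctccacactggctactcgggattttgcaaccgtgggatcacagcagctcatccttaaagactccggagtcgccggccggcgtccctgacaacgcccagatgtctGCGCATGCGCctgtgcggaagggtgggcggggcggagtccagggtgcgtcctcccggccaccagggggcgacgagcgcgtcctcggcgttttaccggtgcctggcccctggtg
Cox6a1: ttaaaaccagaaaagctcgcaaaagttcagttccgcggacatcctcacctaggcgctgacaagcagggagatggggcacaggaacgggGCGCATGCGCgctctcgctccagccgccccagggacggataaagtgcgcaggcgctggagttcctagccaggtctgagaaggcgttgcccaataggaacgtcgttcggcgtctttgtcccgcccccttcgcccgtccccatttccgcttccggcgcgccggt
Ndufaf3 and Ndufaf4 encode partners in the early assembly of complex I, and Cox6a1 encodes the widely expressed form of a complex IV subunit. The difference of iPS from untreated cells was 0.82 for Ndufaf3 and 0.70 for Ndufaf4, against -0.25 for Cox6a1.

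The arrays were checked against markers of the cells they should hold. The mean of 12 pluripotency markers was 11.47 to 11.52 in the iPS arrays, against 4.68 to 5.56 in the untreated arrays. The mean of 13 fibroblast markers was 10.24 in the secondary and 7.50 in the primary iPS array, against 11.42 to 12.69 in the untreated arrays. The secondary iPS array thus read nearer to the untreated arrays in these markers than the primary one, for reasons that were not tested. At 1B day 5 the fibroblast mean was 8.18, and the mean of 9 macrophage markers was 7.33, 8.16 and 7.06 at 6C days 5, 8 and 11, against 5.90 to 6.45 in the untreated arrays. In RNA from whole cultures, fewer cells of a type and less RNA per cell cannot be told apart. Codes in the array names place the arrays in 4 runs, and the part of runs in the results was not tested beyond the values within a run given below. The 6C day 0 array had the lowest median of all, 6.34 against up to 6.67 elsewhere, so differences from it depend on the scaling.

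The members varied less over the 13 arrays than most clusters did: their median range was 1.19, against 1.67 over all clusters. The narrowest range, 0.56, was that of the accessory subunit Ndufa5, and the widest, 2.46, that of the accessory subunit Ndufs6. The arrays on which members read highest were few. Of the 60 genes, 22 had their highest value at 6C day 21, 17 at 1B day 5 and 9 at 6C day 16, so that 48, or 80.0%, peaked on these 3 arrays, against 17.9% of all clusters. The 3 arrays were singled out after the values were seen, and the count was 45 after quantile normalization and 46 after centring. The lowest value was in the Parental MEFs for 18 members, in 6C at day 0 for 14 and in 6C at day 8 for 8, or 30.0%, 23.3% and 13.3%, where 8.00%, 15.4% and 9.21% of all clusters were lowest. None was lowest at 6C day 16, 6C day 21 or 1B day 5.

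**Figure D1:**
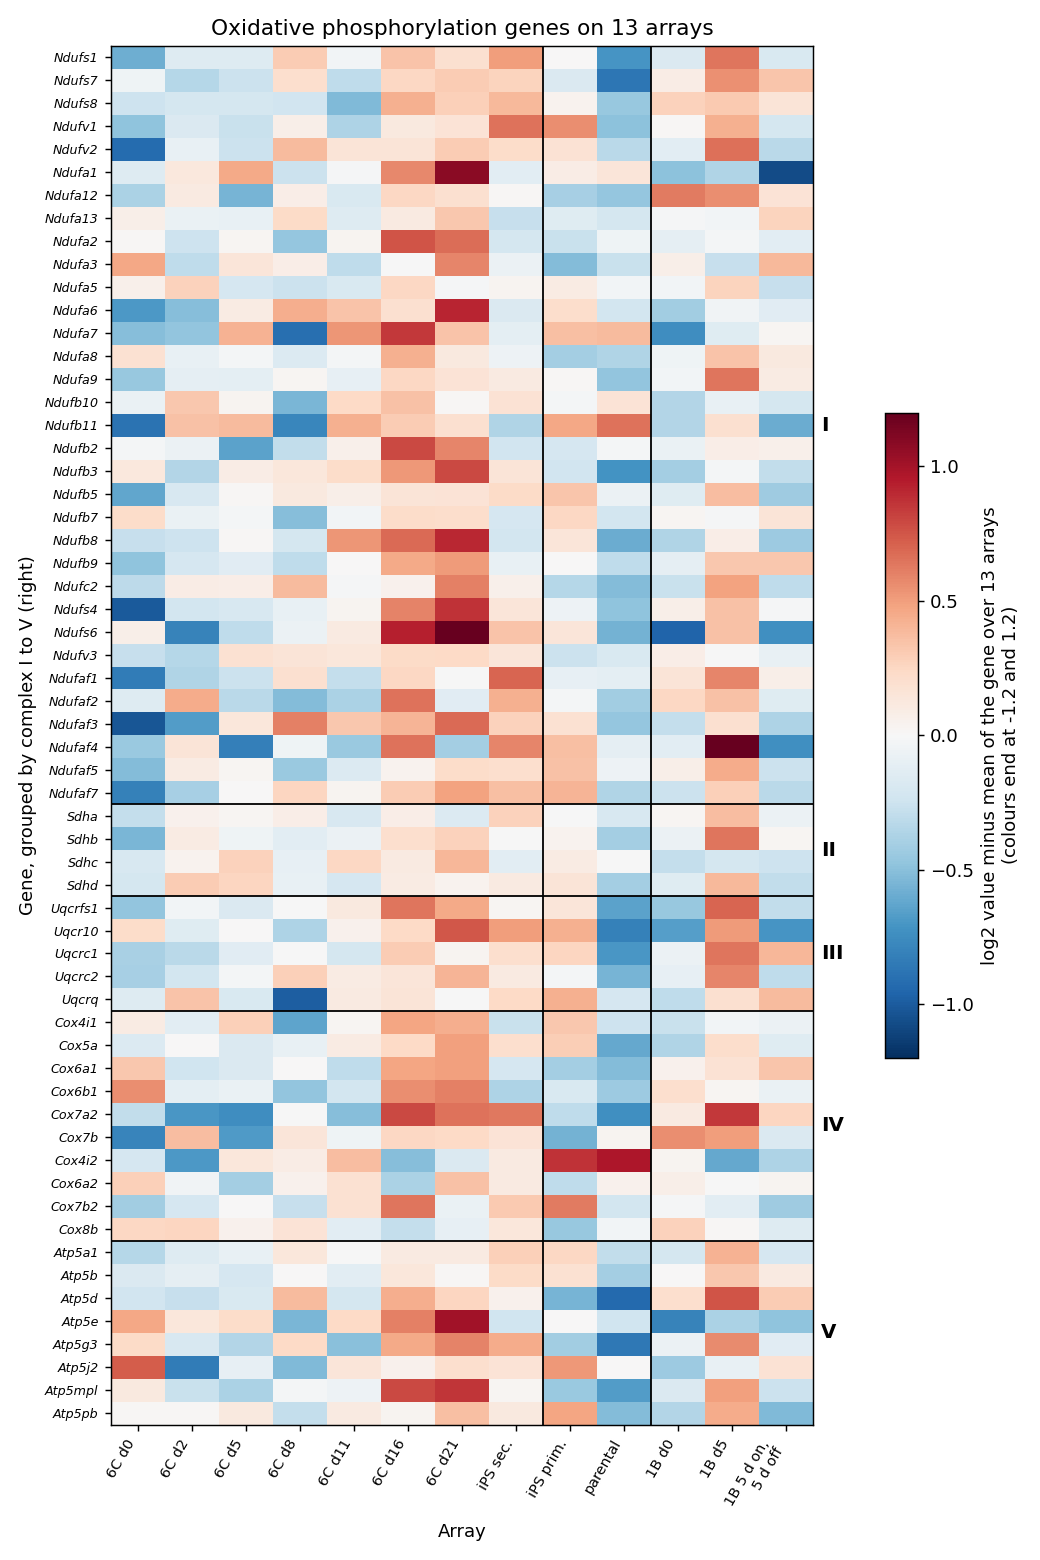
Each row is 1 of the 60 genes and each column 1 of the 13 arrays; colour is the log2 value minus the mean of the gene over the 13 arrays, red for higher and blue for lower, with colours ending at -1.2 and 1.2. Genes are grouped by complex, and the columns for 6C day 16, 6C day 21 and 1B day 5, where 48 of the 60 genes had their highest value, are mostly red.

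The first comparison asked how the chain differed between established iPS cells and untreated fibroblasts. No member passed the test in either direction (limma, Benjamini-Hochberg adjusted p under 0.05 over all clusters, 2 against 3 arrays), while 5.44% of all clusters were called higher and 3.32% lower. At an unadjusted p under 0.05 there were 7 members, or 11.7%, against 27.4% of all clusters. The differences were small and mostly of 1 sign. The mean was above that of the untreated arrays for 49 members, or 81.7%, against 48.3% of all clusters, with a median difference of 0.31 against -0.02, and all members lay between -0.39 and 0.92. Both iPS arrays were above all 3 untreated arrays for 25 members, or 41.7%, where 22.2% of all clusters were. They were below them for 2, or 3.33%, where 22.1% were.

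By complex, the median difference was 0.32 in complex I, 0.32 in complex II, 0.61 in complex III, 0.02 in complex IV and 0.25 in complex V. In complex III the iPS arrays were above all untreated arrays for 5 of 5 genes. The counts were 13 higher and 2 lower of 33 in complex I, 2 higher of 4 in complex II, 2 higher of 10 in complex IV and 3 higher of 8 in complex V. Over all clusters, 22.2% were higher and 22.1% lower by this rule, and the count of complex IV is near the first share. Within complex I, the median was 0.66 for the core subunits and 0.63 for the assembly factors, against 0.20 for the accessory subunits. Differences between complexes were not tested. Within run 2, where the primary iPS and parental arrays stood side by side, the medians were 0.41, 0.32, 0.79, 0.18 and 0.48 for complexes I to V, and 0.43 over all members. There, 47 members, or 78.3%, were above the Parental MEFs, where 48.6% of all clusters were, and 2 were over 2-fold higher and 0 lower, where 14.1% and 19.0% were. With 1.5-fold as the bound, 15 of the 60 were higher and 1 lower, where 23.5% and 28.6% of all clusters were.

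**Figure D2:**
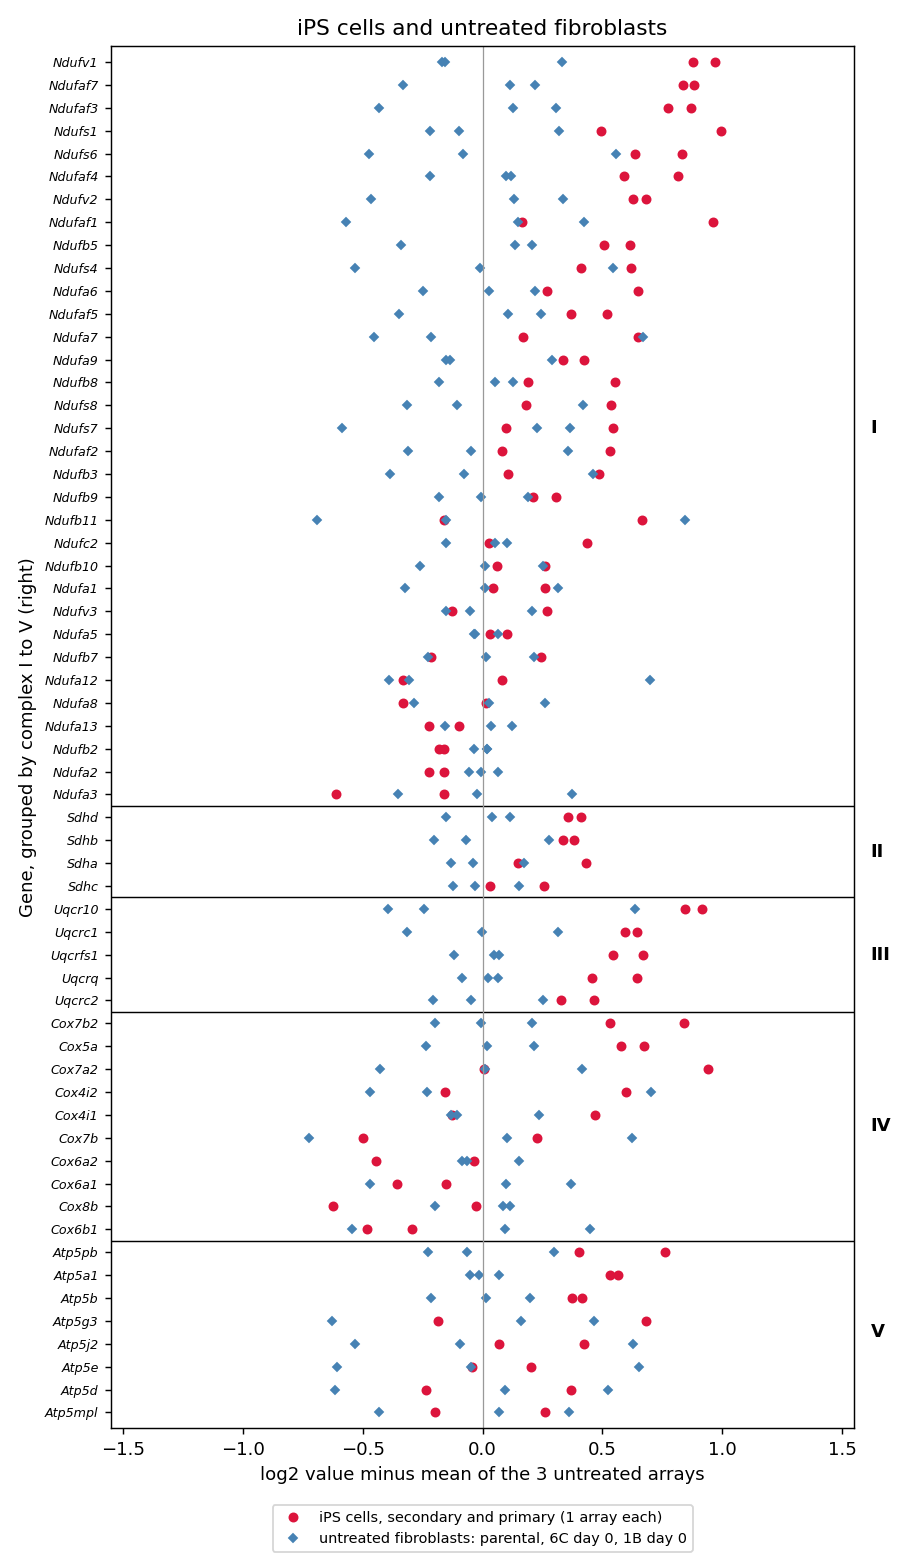
Each row is 1 gene, grouped by complex and sorted by difference; the horizontal axis is the log2 value minus the mean of the 3 untreated arrays, with red circles for the secondary and primary iPS arrays and blue diamonds for the untreated arrays. Red circles lie right of all blue diamonds for 25 genes, among them all 5 of complex III, while those of complex IV lie on both sides of 0.

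Among the core subunits of complex I, Ndufv1, the flavoprotein that takes electrons from NADH, had the largest difference of all members. It read 10.85 and 10.76 in the secondary and primary iPS arrays, against 9.71 in the parental, 9.72 in the 6C day 0 and 10.21 in the 1B day 0 array, a difference of 0.92 (SE 0.27, limma adjusted p = 0.0928). Its groups did not overlap. Ndufs1, the large iron-sulfur subunit of the same module, read 11.92 and 11.42 in the secondary and primary iPS arrays, against 10.71, 10.83 and 11.25 in the parental, 6C day 0 and 1B day 0 arrays (difference 0.74, SE 0.30). Its groups did not overlap either. Ndufv2, the other core flavoprotein subunit here, was 0.66 higher. Ndufs7 and Ndufs8, iron-sulfur subunits near the quinone site, were 0.32 and 0.36 higher, both with overlapping groups. Ndufv3, a flavoprotein subunit classed as accessory, differed by 0.07, also with overlapping groups.

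The complex I assembly factors were all on the higher side. Ndufaf7, which methylates a core subunit, read 9.30 and 9.35 in the secondary and primary iPS arrays, against 8.58, 8.13 and 8.68 in the parental, 6C day 0 and 1B day 0 arrays (difference 0.86, SE 0.28). Ndufaf3 read 8.70 and 8.60 against 7.95, 7.39 and 8.13 in the same order of arrays (0.82, SE 0.31), and Ndufaf4 read 9.62 and 9.40 against 8.93, 8.59 and 8.91 (0.70, SE 0.26). In these 3 genes the groups did not overlap, and none passed the test. Ndufaf5 (0.45, SE 0.28) did not overlap either, while Ndufaf1 (0.56, SE 0.41) and Ndufaf2 (0.31, SE 0.31) did. Within run 2 the difference of Ndufaf1 was 0.01. The assembly factors, and other members named outside the rule given with the processing, were chosen after their values were seen.

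Accessory subunits of complex I went both ways. Ndufs6, a zinc-binding subunit added late in assembly, read 9.64 and 9.44 in the secondary and primary iPS arrays, against 8.72, 9.36 and 8.33 in the parental, 6C day 0 and 1B day 0 arrays (difference 0.73, SE 0.36). Ndufa3, a small membrane subunit, read 9.95 and 9.50, against 9.76, 10.49 and 10.09 in those untreated arrays, the lowest difference of complex I (-0.39, SE 0.32), with overlapping groups. The 2 members whose iPS arrays both lay below all untreated arrays were the small subunits Ndufa2 and Ndufb2, with differences of -0.19 and -0.17.

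In complex II, which also serves the tricarboxylic acid cycle, the largest difference was that of the membrane anchor Sdhd. It read 10.51 and 10.56 in the secondary and primary iPS arrays, against 10.00, 10.19 and 10.26 in the parental, 6C day 0 and 1B day 0 arrays (0.39, SE 0.24), without overlap. The iron-sulfur subunit Sdhb read 9.29 and 9.33, against 8.88, 8.75 and 9.23 in those untreated arrays (0.36, SE 0.26), also without overlap. The flavoprotein Sdha and the anchor Sdhc overlapped between groups, at 0.29 and 0.14. None of the 4 passed the test.

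In complex III, Uqcrfs1 encodes the Rieske iron-sulfur protein, Uqcrc1 and Uqcrc2 the large core proteins, and Uqcr10 and Uqcrq small subunits. Uqcr10 read 9.67 and 9.60 in the secondary and primary iPS arrays, against 8.36, 9.39 and 8.51 in the parental, 6C day 0 and 1B day 0 arrays (0.88, SE 0.37). Uqcrfs1 read 7.69 and 7.82, against 7.03, 7.20 and 7.22 in those untreated arrays (0.61, SE 0.24). Uqcrc1 read 12.32 and 12.37, against 11.41, 11.72 and 12.04 (0.62, SE 0.28). In each of the 3 genes both iPS values lay above all untreated values. Uqcrc2 was 0.40 higher and Uqcrq 0.55 higher, again without overlap and without passing the test.

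Complex IV was the complex with no common direction. Cox5a, a nuclear subunit that joins early in assembly, read 10.67 and 10.76 in the secondary and primary iPS arrays, against 9.85, 10.30 and 10.11 in the parental, 6C day 0 and 1B day 0 arrays (0.63, SE 0.26). Cox6b1, which lies where cytochrome c docks, read 10.52 and 10.70, against 10.46, 11.45 and 11.10 in those untreated arrays (-0.39, SE 0.35). The groups of Cox6b1 overlapped, and within run 2 its difference was 0.25, of the other sign.

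Several complex IV subunits exist as a common and a tissue form. Cox4i1, the common form of the first nuclear subunit, read 10.59 and 11.19 in the secondary and primary iPS arrays, against 10.62, 10.96 and 10.59 in the parental, 6C day 0 and 1B day 0 arrays. Its alternative form Cox4i2, known from lung and from low oxygen, read 6.77 and 7.52, against 7.62, 6.45 and 6.69. Neither isoform separated the groups. Cox4i2 differed more over the whole set. Its highest value, 7.62, was in the Parental MEFs, its second, 7.52, in the primary iPS cells, and its lowest, 5.96, in 6C at day 2. All of these arrays belong to run 2, so both ends of its range lay within that run.

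Cox6a1 and its heart and muscle form Cox6a2 had differences of -0.25 and -0.24, with overlapping groups, and within run 2 Cox6a1 differed by 0.11. The mean of 9 muscle markers was 6.29 to 6.33 in iPS arrays, against 6.15 to 6.61 in untreated arrays. Cox8b, the form of muscle and brown fat, read 5.47 and 4.87 in the secondary and primary iPS arrays, against 5.29, 5.58 and 5.60 in the parental, 6C day 0 and 1B day 0 arrays. The mean of 5 brown fat markers was 4.87 to 5.24 in iPS arrays, against 5.10 to 5.83 in untreated arrays. Cox7b2, the testis form, read 2.49 and 2.80, against 1.95, 1.76 and 2.17 in those untreated arrays (0.69, SE 0.26), without overlap. These are among the lowest values of the table, where RMA compresses differences, and its partner Cox7b (5.72 and 4.99 in the secondary and primary iPS arrays, against 5.60, 4.77 and 6.11) overlapped. The mean of 8 male germ cell markers was 6.81 to 6.86 in iPS arrays, against 3.98 to 4.33 in untreated arrays, and their part in the level of Cox7b2 was not tested. Cox7a2, the common form of another small subunit, read 9.35 in the secondary and 8.41 in the primary iPS array, a gap wider than that among the untreated arrays (7.98, 8.42 and 8.82).

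In complex V, the catalytic subunits Atp5a1 and Atp5b and the stalk subunit Atp5pb separated the groups. Atp5a1 read 12.78 and 12.75 in the secondary and primary iPS arrays, against 12.20, 12.16 and 12.28 in the parental, 6C day 0 and 1B day 0 arrays (0.55, SE 0.23). Atp5b read 13.44 and 13.39, against 12.80, 13.03 and 13.22 in those untreated arrays (0.40, SE 0.25). Atp5pb read 7.74 and 8.09, against 7.10, 7.63 and 7.27 (0.58, SE 0.29). The remaining 5 overlapped: Atp5g3, of the rotating ring, differed by 0.25, Atp5e, of the central stalk, by 0.08, and the small proteolipid gene Atp5mpl by 0.03.

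The iPS arrays themselves differed little in these genes. Secondary minus primary iPS gave a median of 0.06 over the members, and none differed over 2-fold, where 7.94% of all clusters were over 2-fold higher and 7.35% lower. With 1.5-fold as the bound, 6 members were higher, where 17.4% of all clusters were, and 3 lower, where 16.0% were. The median turned to -0.12 after centring.

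The second comparison followed the 6C line through reprogramming, with 7 days and the secondary iPS cells at day 30. Of the members, 1 of the 60 members passed the test of a curve of degree 3 over the days (limma F test, adjusted p under 0.05), where 6.43% of all clusters did; before adjustment, 15 members, or 25.0%, had p under 0.05, against 24.6% of clusters. The member called was Ndufs6. It read 9.36 in untreated 6C cells, 8.49, 8.99, 9.22, 9.40, 10.23 and 10.79 on days 2, 5, 8, 11, 16 and 21, and 9.64 in the secondary iPS cells (adjusted p = 0.0445). The values at days 16 and 21 stood above all others. The call was lost in each of the 8 fits that left out 1 array (adjusted p of 0.0637 to 0.216) and after quantile normalization (0.0627), and it held after centring (0.0488). When only clusters with a mean over 6 were tested, 7 of 57 members, or 12.3%, were called, where 24.3% of those clusters were: Ndufs6, Ndufs4, Ndufaf3, Ndufaf7, Ndufb8, Cox7a2 and Atp5mpl.

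Early in the 6C series the members showed no direction that held under scaling. Their median difference from day 0 was 0.17, 0.11, 0.12 and 0.13 at days 2, 5, 8 and 11 as deposited, but -0.11, -0.22, -0.08 and -0.16 after each array was centred on its median. The mean of the macrophage markers, though not each marker, was above that of all untreated arrays at days 5, 8 and 11, and their part was not tested. From day 16 the median was positive either way. At day 16 the median was 0.58 (0.34 after centring, 0.13 over all clusters), and at day 21 it was 0.56 (0.45 after centring, 0.03 over all clusters). The fibroblast markers averaged 11.68, 10.17 and 9.89 at days 0, 16 and 21 and the pluripotency markers 4.68, 9.16 and 9.86, and their part in the members' values was not tested. At day 21, on the same run as day 0, 55 members, or 91.7%, were above day 0, against 51.6% of all clusters, and 10 were over 2-fold higher and 0 lower, where 13.0% and 9.08% of all clusters were. With 1.5-fold as the bound, 29 of the 60 were higher and 0 lower, where 24.2% and 17.7% of all clusters were.

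Against the Parental MEFs, which shared run 2 with 6C days 2, 5, 11 and 16, the members' medians were 0.26, 0.27, 0.28 and 0.68. The median of all clusters stayed within 0.02 of 0 in these 4 comparisons. At day 16, 56 members, or 93.3%, were above the Parental MEFs, against 50.5% of all clusters. Of the 60, 14 were over 2-fold higher, where 11.9% of all clusters were, and 1 over 2-fold lower, Cox4i2, where 13.3% were. With 1.5-fold as the bound, 33 of the 60 were higher and 1 lower, where 21.7% and 22.6% of all clusters were. Complex III had the highest median at day 16, 1.01, followed by complex IV with 0.78, complex V with 0.70, complex I with 0.67 and complex II with 0.39. The untreated arrays differed too, by the median deviation from each gene's mean over the 13 arrays. It was -0.46 in the Parental MEFs, 0.07 at 6C day 0 and 0.29 at day 16 in complex V. In the same order it was -0.31, -0.32 and 0.31 in complex I, and -0.30, -0.25 and 0.10 in complex II. It was -0.64, -0.39 and 0.24 in complex III, and -0.24, -0.03 and 0.36 in complex IV. So a difference from the Parental MEFs is not the change since day 0. The 6C day 0 array is of another run.

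The members that stood highest late in the series came from several complexes. Ndufs4, an accessory subunit of the NADH module, read 7.79 at day 0, 8.57, 8.61, 8.71 and 8.83 at days 2, 5, 8 and 11, 9.40 at day 16, 9.66 at day 21 and 8.94 in the secondary iPS cells, the largest difference of day 21 from day 0 (1.87). Atp5mpl read 10.19 at day 0, 9.80, 9.69, 10.04 and 10.01 at days 2, 5, 8 and 11, 10.86 at day 16, 10.93 at day 21 and 10.09 in the secondary iPS cells. Cox7a2 read 8.42 at day 0, 8.01, 7.97, 8.71 and 8.20 at days 2 to 11, 9.51 at day 16, 9.36 at day 21 and 9.35 in the secondary iPS cells. For Ndufs4 and Atp5mpl the 2 late days were the highest of the series. Cox7a2 kept its late level in the secondary iPS cells, while the primary iPS array read 8.41, near 6C day 0. Cox6b1 read 11.45 at day 0, 10.78, 10.81, 10.42 and 10.67 at days 2 to 11, 11.45 at day 16, 11.50 at day 21 and 10.52 in the secondary iPS cells, so its days 0, 16 and 21 were alike and all others lower.

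From day 21 to the secondary iPS cells the order turned. Only 18 members, or 30.0%, were above day 21 in the iPS cells, where 54.2% of all clusters were, with a median of -0.19 (-0.29 after centring). The accessory subunits of complex I had a median of -0.58, while its core subunits had 0.11 and its assembly factors 0.27. There were 0 members over 2-fold higher, where 9.04% of all clusters were, and 5 over 2-fold lower, where 7.54% were: Atp5e (-1.24), Ndufa1 (-1.21), Ndufs6 (-1.15), Ndufb8 (-1.12) and Ndufa6 (-1.09). The day 21 and iPS arrays belong to different runs, so run and stage cannot be told apart here.

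**Figure D3:**
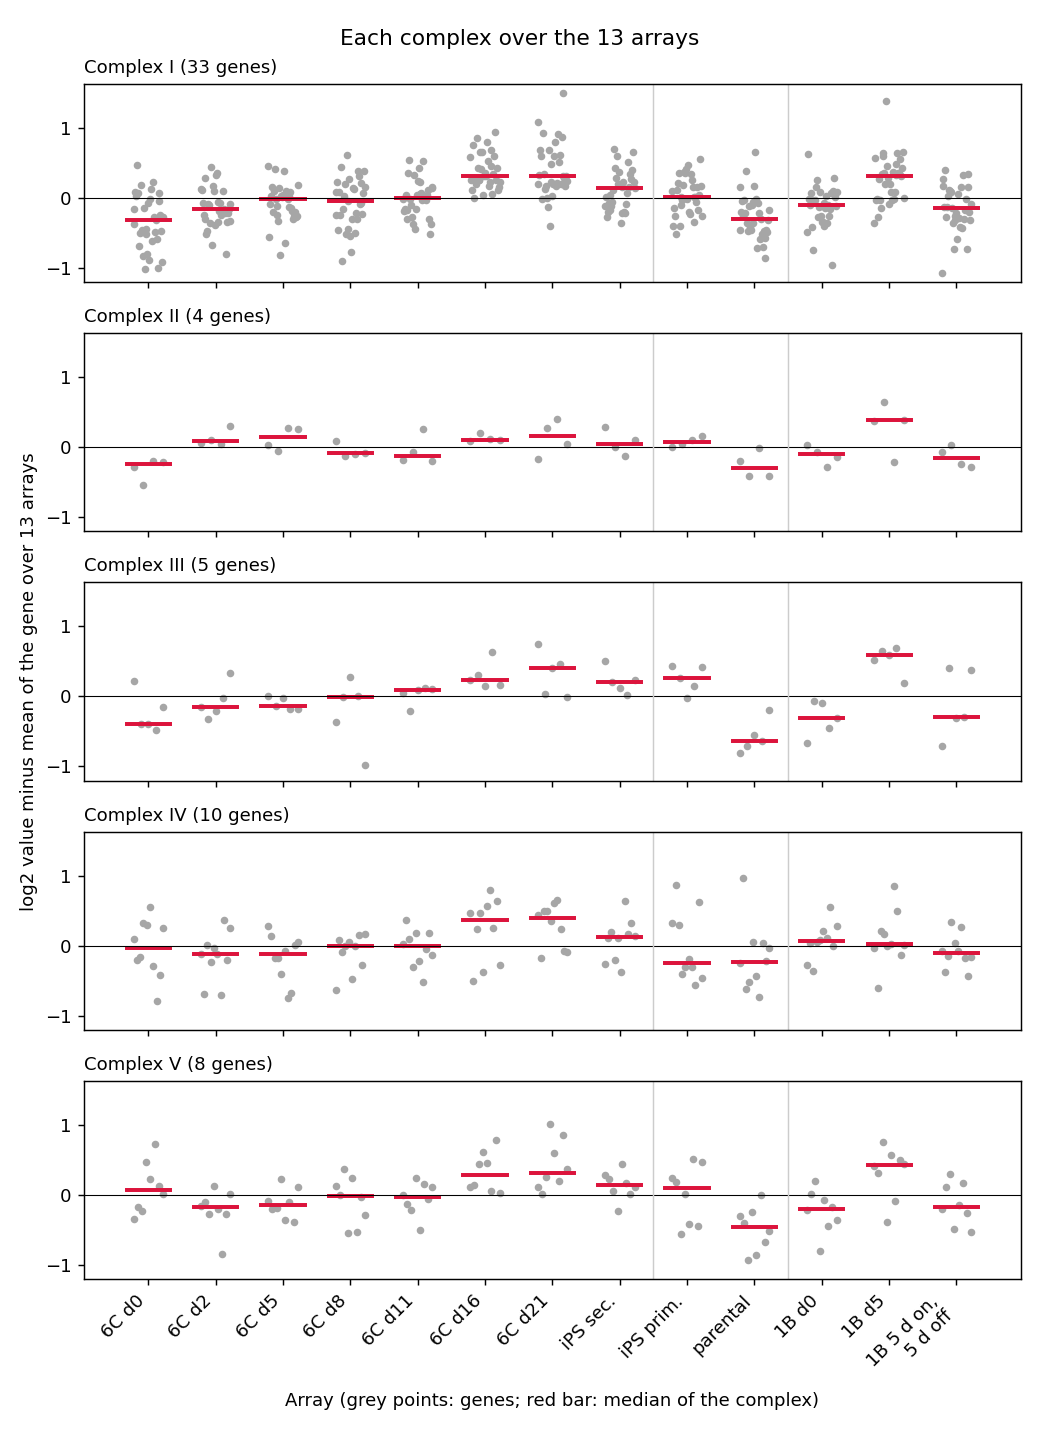
Each panel is 1 complex; the horizontal axis gives the 13 arrays (the 6C series by day and its iPS cells, then the primary iPS cells and the Parental MEFs, then line 1B) and the vertical axis the log2 value minus the mean of the gene over all arrays. Grey points are genes and red bars the median of the complex; the bar is highest at 1B day 5 in complexes I, II, III and V and at 6C day 21 in complex IV.

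The third comparison asked what 5 days of Dox did in both lines. With 4 arrays and line as a block, no cluster passed the test, which on simulated data recovered none of the changes planted in it, so that the lack of calls says nothing about these genes (0.0% of all clusters; at an unadjusted p under 0.05, 0 members and 7.59% of clusters). At day 5, 31 members, or 51.7%, were higher in both lines, where 31.6% of all clusters were. Lower in both were 7, or 11.7%, where 20.9% of all clusters were. The first count was 23 after quantile normalization and 21 after centring. In 6C the median of day 5 minus day 0 was 0.11 over the members (-0.22 after centring), and the difference between the lines was not tested. In 1B the median of day 5 minus day 0 was 0.42 over the members (0.55 after centring), against -0.01 over all clusters, and 49 members, or 81.7%, were above day 0, where 48.8% of all clusters were.

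Line 1B also shows what happened when Dox was taken away, with all 3 arrays in 1 run and no test possible at 1 array each. At day 5 the medians above day 0 were 0.71 in complex III, 0.59 in complex V, 0.44 in complex II and 0.39 in complex I, while complex IV stood at -0.07 (0.07 after centring). Complex IV includes 4 alternative isoforms, all lower at day 5: Cox4i2 (-0.64), Cox8b (-0.27), Cox7b2 (-0.12) and Cox6a2 (-0.08). Of its other subunits, Cox7a2 (0.74), Cox5a (0.57), Cox4i1 (0.24) and Cox6a1 (0.12) were higher, and Cox6b1 (-0.18) and Cox7b (-0.05) lower. After 5 days without Dox the median over all members was -0.41 relative to day 5 and -0.04 relative to day 0 (0.07 after centring). In all, 44 members, or 73.3%, were higher at day 5 and lower again after withdrawal, where 37.4% of all clusters were. The fibroblast markers averaged 11.42 untreated, 8.18 with Dox and 10.36 once Dox was withdrawn, the pluripotency markers 5.00, 7.45 and 5.73, and the part of changing cell types in the members' values was not tested.

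The widest swing in 1B was that of the assembly factor Ndufaf4, which read 8.91 untreated, 10.42 on the fifth day of Dox and 8.31 once Dox was withdrawn. Ndufs6 read 8.33, 9.64 and 8.56 at the same 3 stages, Uqcr10 8.51, 9.68 and 8.46, and Uqcrfs1 7.22, 8.37 and 7.38. These 4 were the members over 2-fold higher at day 5, where 9.49% of all clusters were, and 0 were lower, where 12.7% were. Set against day 5, withdrawal left 3 of them over 2-fold lower, where 11.8% of all clusters were, with Uqcrfs1 just inside that bound at -0.99, and 0 members over 2-fold higher, where 10.8% were. With 1.5-fold as the bound, 21 of the 60 members were lower and 1 higher, where 21.6% and 20.2% of all clusters were. No member was over 2-fold from day 0 after withdrawal, where 3.38% of all clusters were higher and 7.41% lower. With 1.5-fold as the bound, 3 were higher and 3 lower, where 8.84% and 15.0% of all clusters were.

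The 15 members classed as core or catalytic were all higher at day 5 than at day 0 and lower again after withdrawal. Their sizes at day 5 ran from 1.15 (Uqcrfs1) down to 0.07 (Sdhc) and 0.04 (Ndufs8). They were 5 of complex I, 4 of complex II, 1 of complex III and 5 of complex V, with none of complex IV. Uqcrc1 and Uqcrc2, though named core proteins, and Cox5a were classed as accessory. Ndufv1 read 10.21 untreated, 10.62 with Dox and 9.99 once Dox was withdrawn, Sdhb 9.23, 9.93 and 9.32, and Atp5a1 12.28, 12.92 and 12.30. The stalk subunit gene Atp5pb read 7.27, 8.07 and 7.09, and the core protein gene Uqcrc2 11.94, 12.63 and 11.74. All 5 were highest at day 5, and their differences from day 0 after withdrawal lay between -0.22 (Ndufv1) and 0.09 (Sdhb). Uqcrc1 read 12.04, 12.75 and 12.51 and so stayed 0.47 above day 0. Within complex IV, Cox7a2 read 8.82, 9.56 and 8.98 and Cox5a 10.11, 10.68 and 10.32, with day 5 highest, while Cox6b1 read 11.10, 10.92 and 10.82 and Cox4i2 6.69, 6.04 and 6.28, with day 0 highest.

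**Figure D4:**
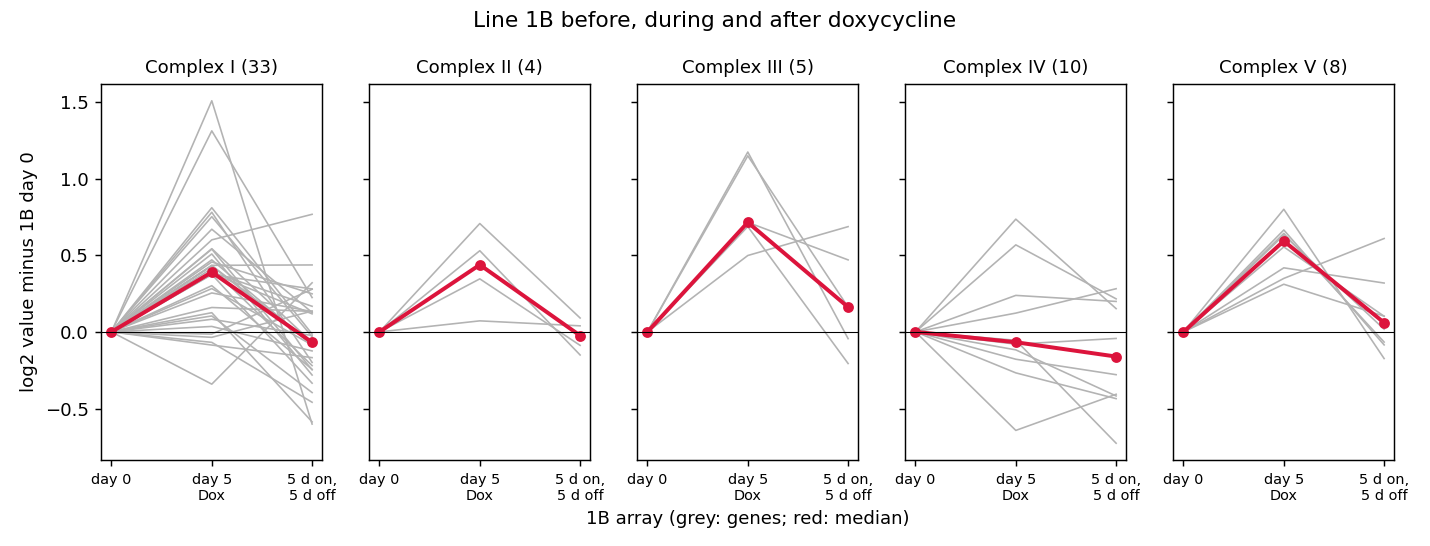
Each panel is 1 complex in line 1B; the horizontal axis gives day 0, day 5 of Dox and 5 days of Dox followed by 5 without, and the vertical axis the log2 value minus day 0. Grey lines are genes and the red line the median. At day 5 it is 0.71 in complex III and -0.07 in complex IV, alternative isoforms included. After withdrawal it lies between -0.16 and 0.16 in each complex.

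The wider set of mitochondrial genes was read from 5 lists. Between iPS and untreated cells, 8 of the 81 genes measured, or 9.88%, passed the test, all higher (5.44% of all clusters were called higher). The list of mitochondrial transcription and its regulators had 18 genes measured, a median of 0.77 and 4 called higher. Tfb1m, which methylates mitochondrial ribosomal RNA, was higher by 2.44 (SE 0.39, limma adjusted p = 0.0250), Tfam, which packages and transcribes mitochondrial DNA, by 2.15 (SE 0.39, adjusted p = 0.0337), and the elongation factor Tefm by 1.91 (SE 0.38, adjusted p = 0.0378). Tfam read 9.94 and 9.93 in the secondary and primary iPS arrays, against 8.38, 7.17 and 7.80 in the parental, 6C day 0 and 1B day 0 arrays. The fourth was the nuclear receptor Esrrb (5.48, adjusted p = 0.00595), which the list of pluripotency markers also holds. The coactivator Ppargc1a, known for driving mitochondrial biogenesis, differed by -1.01 and was not called. It read 3.66 and 3.31 in the secondary and primary iPS arrays, against 4.85, 4.17 and 4.47 in those untreated arrays. These are low values, where RMA compresses differences. Pprc1 and Ppargc1b, of the same list, differed by 1.18 and 0.30 and were not called either.

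Of 28 assembly factors outside the symbol rule, with a median of 0.44, Nubpl was called; it inserts iron-sulfur clusters into complex I and was higher by 2.13 (SE 0.42, adjusted p = 0.0375). Of 15 genes of the tricarboxylic acid cycle and pyruvate dehydrogenase, with a median of 0.34, the pyruvate dehydrogenase subunit gene Pdhb was called (1.28, SE 0.28, adjusted p = 0.0477). Of 12 electron carriers, inhibitors and uncouplers, with a median of -0.06, Cyct was called, the testis cytochrome c, which is also in the male germ cell list (6.55, SE 0.44, adjusted p = 0.00415). Of 8 genes at the branch between pyruvate and lactate, with a median of 0.14, Pdk1, a kinase that switches pyruvate dehydrogenase off, was called (2.37, SE 0.47, adjusted p = 0.0381). The other Pdk genes measured, Pdk2 (-0.84), Pdk3 (-0.39) and Pdk4 (-1.10), were lower in iPS cells and not called. Of the enzyme's other genes, Pdha1 differed by 0.03, Dld by 0.34, Dlat by 0.41 and Pdhx by 1.17, none of them called. So Pdhb and Pdk1, the genes called here, were both higher in iPS cells, but the kinase genes had no common direction. Cyct and Esrrb passed the test in each of the 5 fits that left out 1 array; the other 6 genes passed in none of them, with adjusted p-values of 0.0509 to 0.192.

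In the 6C series 6 of the 81 genes measured, or 7.41%, passed the test over the days, close to the 6.43% of all clusters: Cyct, Esrrb, Tfb1m, Nubpl, Pdk1 and the lactate dehydrogenase gene Ldhb. Cyct read 3.09 in untreated 6C cells, 4.39 on day 16, 6.51 on day 21 and 9.44 in the secondary iPS cells. Nubpl read 5.65 in untreated 6C cells, then 6.68, 7.64 and 8.64 on days 2, 5 and 21. Cyct thus stood highest at the end of the series and Nubpl at day 21. Left out 1 array at a time, Cyct kept its call in 7 of 8 fits, Nubpl and Pdk1 in 3, Tfb1m in 1 and Esrrb and Ldhb in 0. In 1B, Pdk1 read 8.86 untreated, 10.55 with Dox and 7.73 once Dox was withdrawn, and Tfam 7.80, 9.37 and 7.81. Tfam was thus back near its untreated value, while Pdk1 was below its own.

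**Figure D5:**
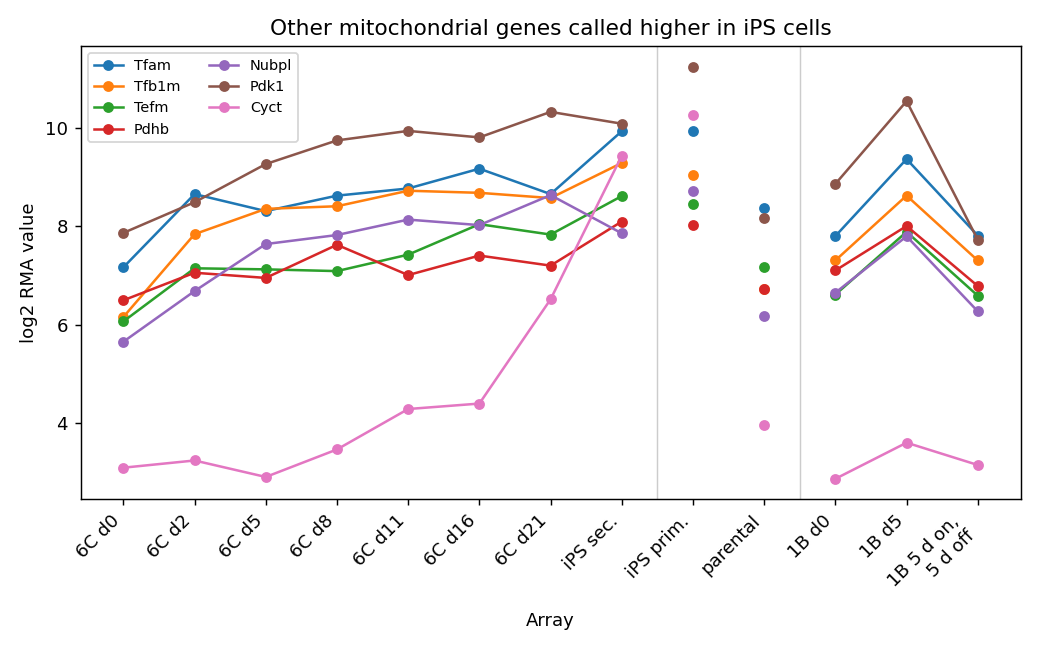
The horizontal axis gives the 13 arrays and the vertical axis the log2 value of 7 mitochondrial genes called higher in iPS cells; lines join the 6C series and the 1B series, and the primary iPS and parental arrays stand as single points. Tfam reads 9.94 and 9.93 in the iPS arrays, and Pdk1 reads 8.86, 10.55 and 7.73 over the 3 arrays of 1B.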

How the data were processed

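The authors deposited log2 expression values per transcript cluster of 13 Affymetrix mouse exon arrays, made by RMA in Affymetrix Expression Console with the mm9 build, per the submitters' processing notes. RMA subtracts background, equalises the arrays and summarises probes, so differences of dim genes are compressed and levels of different genes are not comparable. The values run from 0.461 to 14.3, and base 2 was inferred from this range, since no source used here states it. Gene names came from the platform annotation: 14996 of 23332 clusters had 1 symbol, 1019 several and 7317 none. Each member has 1 cluster, and all 60 symbols matched the GRCm38.p6 annotation by gene identifier.

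Samples were grouped by their labels. Array names disagree with the labels in 2 cases (6C day 0 is named as day 2 with no Dox, 6C day 8 as day 9), and the labels were followed. The iPS cells are called Dox independent while their agent label names Dox, and which holds was not settled.

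Fits used limma 3.58.1 (R 4.3.3). They set iPS against untreated cells (2 against 3 arrays) and tested a degree 3 polynomial in day over the 6C series (8 arrays, F test), and day 5 was compared with day 0 with line as a block (4 arrays). P-values were adjusted by Benjamini-Hochberg over all clusters, and the call was an adjusted p under 0.05. Single arrays were compared without a test. The fits were tested on simulated data: the fits of iPS cells and of the 6C series missed part of the planted changes and the day 5 fit all of them, so a gene that was not called is not shown to be unchanged. Motifs were searched in RefSeq promoters with Python 3.11.15.

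The members, lists and tests were chosen with earlier results of these data known. Members named by rule were, in each complex, those with the highest and the lowest difference of iPS from untreated cells and with the widest range, the complex IV isoforms and their partners, the main catalytic or core subunits, and any called; 28 genes met it. Alternatives were quantile normalization, centring, a filter on clusters with a mean of at most 6, a 2-fold minimum, 2 other curves, no line block, 1.5-fold in place of 2-fold, run 2 alone, and each array left out. Precision is limited by how few arrays there are.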

Additional observations from a re-analysis of the deposited data

How the results depend on the processing

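Across the alternatives, 391 of the values recomputed kept their direction and their side of the threshold or moved little. Of the others, 31 moved, 14 reversed and 11 were weaker. The number of members called over the 6C series, 1 as deposited, was 0 after quantile normalization, with a curve of degree 2 and with a curve in log2(day + 1), 7 of 57 when only clusters with a mean over 6 were tested, and 0 to 0 over the fits that left out 1 array. No member was called between iPS and untreated cells or at day 5 under any alternative run. With 1.5-fold in place of 2-fold, withdrawn against day 5 in 1B gave 1 member higher and 21 lower (3 lower at 2-fold; 5 after quantile normalization and 6 after centring). Likewise, withdrawn against day 0 gave 3 higher and 3 lower, secondary against primary iPS cells 6 higher and 3 lower, 6C day 21 against day 0 29 higher (10 at 2-fold, 6 after quantile normalization), primary iPS against Parental MEFs 15 higher and 1 lower (2 higher at 2-fold, 6 after quantile normalization, 8 after centring), and 6C day 16 against Parental MEFs 33 higher. Within run 2 the median difference was 0.79 in complex III and 0.48 in complex V, and leaving out 1 array gave 0.24 to 0.41 in complex II.

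Some members with small differences of iPS from untreated cells changed sign when 1 array was left out: Atp5e (-0.23 to 0.41), Atp5g3 (-0.19 to 0.68), Atp5mpl (-0.20 to 0.26), Cox4i1 (-0.13 to 0.47), Cox4i2 (-0.16 to 0.60) and Cox7b (-0.50 to 0.23). Within run 2, Cox4i2 was at -0.10, Cox6a1 at 0.11 and Cox6b1 at 0.25. The cause was not tested. Over all clusters, calls between iPS and untreated cells were 1269 higher and 775 lower, against 1666 and 1310 after quantile normalization, 1707 and 1295 after centring and 1786 and 1542 among clusters with a mean over 6, and 79 to 448 higher and 1 to 480 lower with 1 array left out. The 6C series gave 1500 calls, 905 higher and 595 lower by the fitted change at the last day, against 1727 and 1466 among clusters with a mean over 6 537 and 197 with the curve in log2(day + 1), 1015 and 927 after quantile normalization, and 98 to 459 higher and 38 to 284 lower with 1 array left out. At day 5, centring gave 334 clusters higher and 259 lower, against 0 as deposited. A random block for run could not be estimated, since only 1 run holds 2 of the 5 arrays, and taking every cluster of a member changed nothing, since each has 1. The line block pairs the lines at day 5, and 0 members were called with or without it. No paired analysis was possible because of missing shared replicate numbers in the comparison of iPS with untreated cells and in the 6C series. That reason concerns replicate numbers only. Secondary iPS can also be set against 6C day 0, of the same line, and primary iPS against Parental MEFs, but no fit used these pairs. In that order of pairs, Cox6b1 differed by -0.93 and 0.25 and Atp5e by -0.70 and 0.25, of opposite sign. Ndufv1 differed by 1.13 and 1.05, of the same sign. With 1 array per condition, a difference between single arrays has no replicate check.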
